A study of Mus musculus with 6 samples.

Results

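The genes described here encode the basement membrane of the corneal epithelium and the hemidesmosomes that fix basal cells to it. They were 35 genes of the 17866 in the deposited table, chosen by symbol and function, namely 10 laminin chains, 6 collagen IV chains, 2 nidogens, 2 heparan sulfate proteoglycans, 7 genes of hemidesmosomes and anchoring fibrils, 2 integrin chains of other laminin receptors, 3 genes of the Fraser complex and 3 further basement membrane ligands. All 35 symbols had a row, and 29 had enough counts for a test. RNA came from corneal epithelium that had been separated from the rest of the cornea of C57BL/6 mice at 6 months of age, with 3 libraries labelled wild type (WT) and 3 labelled Rela-/- (KO). According to the study's methods the mutants were Krt14-Cre; Rela f/f mice, so that Rela, the gene of the p65 subunit of NF-κB, was deleted in cells with Krt14 promoter activity and in their progeny, which also lie in conjunctiva, skin and oral mucosa. Whether the WT mice carried a floxed allele or the Cre, and how many mice went into a library, is not given in the sources used here.

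A basement membrane is a thin sheet in which a laminin network, bound to cells by integrins, is joined to a collagen IV network by nidogen and heparan sulfate proteoglycans. Each laminin is a trimer of an α, a β and a γ chain, and laminin-332, which holds the chains of Lama3 and Lamb3, is the form on which hemidesmosomes of stratified epithelia stand. In a hemidesmosome the integrin α6β4 and the transmembrane collagen XVII are tied to keratin filaments by plectin and by the BP230 form of dystonin, and collagen VII forms anchoring fibrils on the stromal side.

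Library totals lay between 20158404 and 20880347 estimated reads, which the study's counting tool RSEM assigned to genes and which need not be whole numbers. Rela itself had 1871, 1844 and 1855 reads in the WT libraries against 318, 223 and 313 in KO, so that 16.5% of its WT level was left. The markers of the labelled tissue were present, since Krt12, the keratin of corneal epithelium, never went below 755776 reads in WT or 109690 reads in KO. Krt12 was nonetheless much lower in KO, at 19.5% of its WT level. The paper describes the mutant central cornea at the age sampled as covered by a thick, keratinized and newly formed epithelium. It reports that staining there had switched from the Krt12 protein to an epidermal keratin, and calls this metaplasia. The WT and KO libraries therefore need not hold the same kind of epithelium. The share of such a change of tissue in the differences below was not tested. Keratins of conjunctiva and epidermis moved with the genotype, and the summed TPM (a transcript level corrected for gene length and scaled to the same sum in every library) of 5 conjunctiva markers lay between 2707 and 3853 in WT and between 50802 and 66768 in KO, with 4 of 5 called higher. The other, Krt8, went the opposite way, to 53.3% of its WT level, and was not called (adjusted p = 0.0612, edgeR). For 5 epidermis markers the sum lay between 30.9 and 42.2 TPM in WT and between 8145 and 16819 TPM in KO, with 4 higher and Ivl lower. The 5 corneal epithelium markers tested summed to between 86855 and 91300 TPM in WT and between 12219 and 15036 TPM in KO. All 5 were called lower. WT replicate 2 stood apart in Krt14, with 25395 reads beside 5207 and 6712 in the other WT libraries. Without it, 21 of the genes described here were called, against 22 with it.

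Most of the basement membrane and hemidesmosome genes that were tested fell in KO. Their summed level lay between 2210 and 2775 TPM in WT and between 888 and 963 TPM in KO. By the edgeR quasi-likelihood test at an adjusted p of 0.05, 18 of the 29 genes tested were lower and 4 were higher in KO. That is 75.9% in all, while 7 did not pass and the other 6 of the 35 genes had too few counts. Across all 13305 genes tested, 30.2% were lower and 31.8% were higher at this threshold, 62.0% in all, so a call as such was common in these libraries. The median log2 fold change (KO over WT) was -0.47 over the 29 genes tested and 0.01 over all genes tested. The threshold of the study was an adjusted p of 0.001 or less and a fold change of at least 2. There, 10 of the 29 genes tested were lower and 2 were higher, beside 8.24% and 11.6% of all genes tested, 19.8% in all. In CPM (reads scaled by library total and by TMM, edgeR's factor for library composition), the 3 KO libraries all lay below the 3 WT libraries for 18 genes and all above for 5, beside 33.9% and 34.7% of all genes tested. The 5 included Lama1, which was not called. TPM placed the KO libraries lower than CPM did, so that Itgb1, Col7a1 and Tinagl1, which overlapped in CPM, did not overlap in TPM, while Npnt and Lama1 overlapped in TPM alone. Levels in WT spanned a wide range, from 1220 ± 181 TPM for Col17a1 to 0 for Lama4 (mean ± SD, n = 3).

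**Figure D1:**
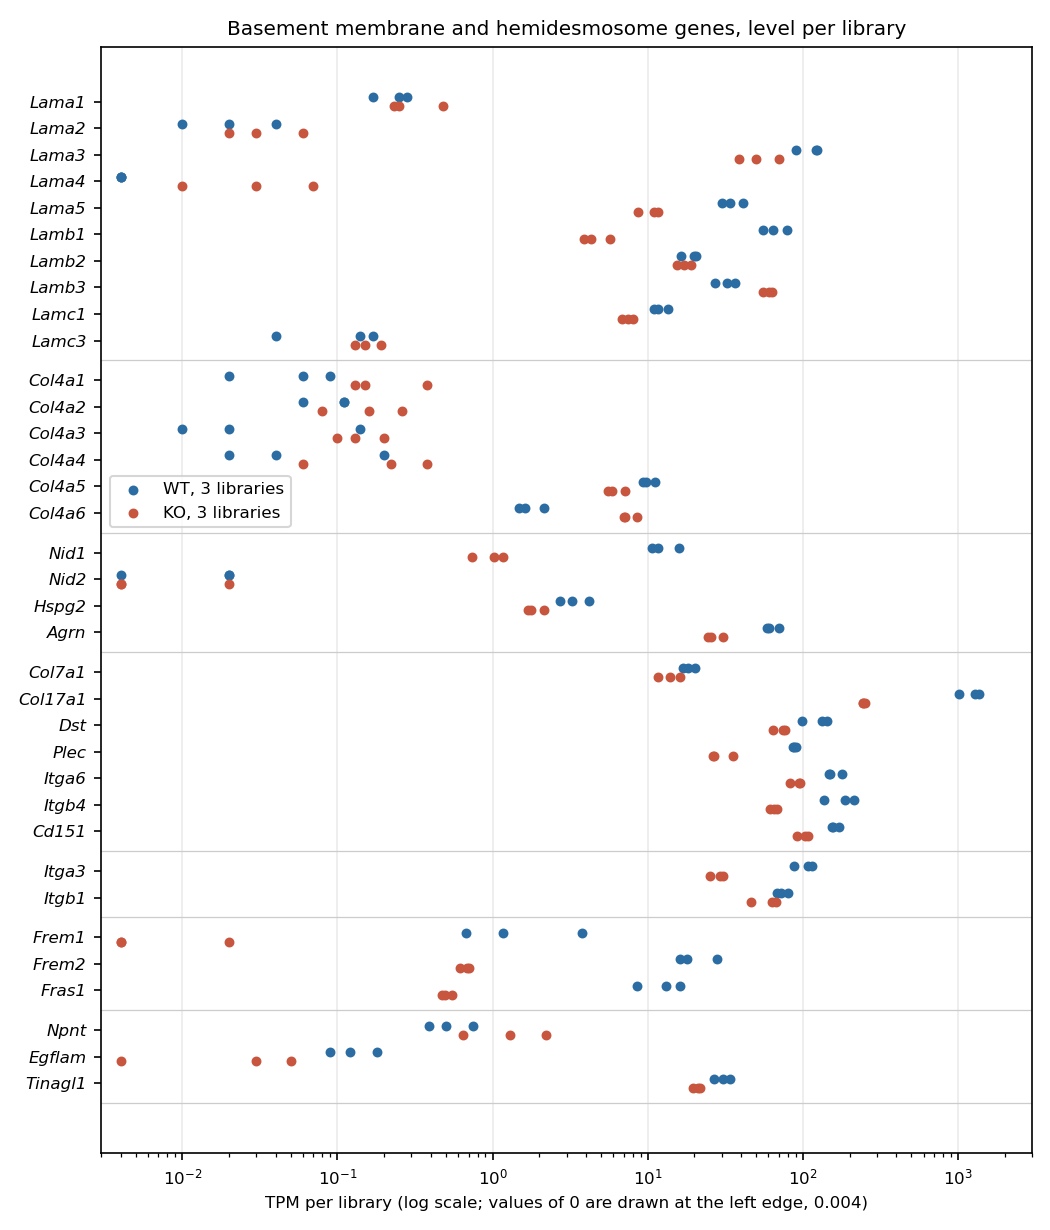
Level of each of the 35 genes in each library, in TPM on a log scale, with 3 WT and 3 KO libraries and with the genes grouped by role. Col17a1 sits farthest to the right in both genotypes, the 3 Fraser complex genes are clearly separated between genotypes, and Lama2, Lama4, Nid2 and the chains Col4a1 to Col4a4 lie under 1 TPM in all libraries. Values of 0 are drawn at the left edge.

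**Figure D2:**
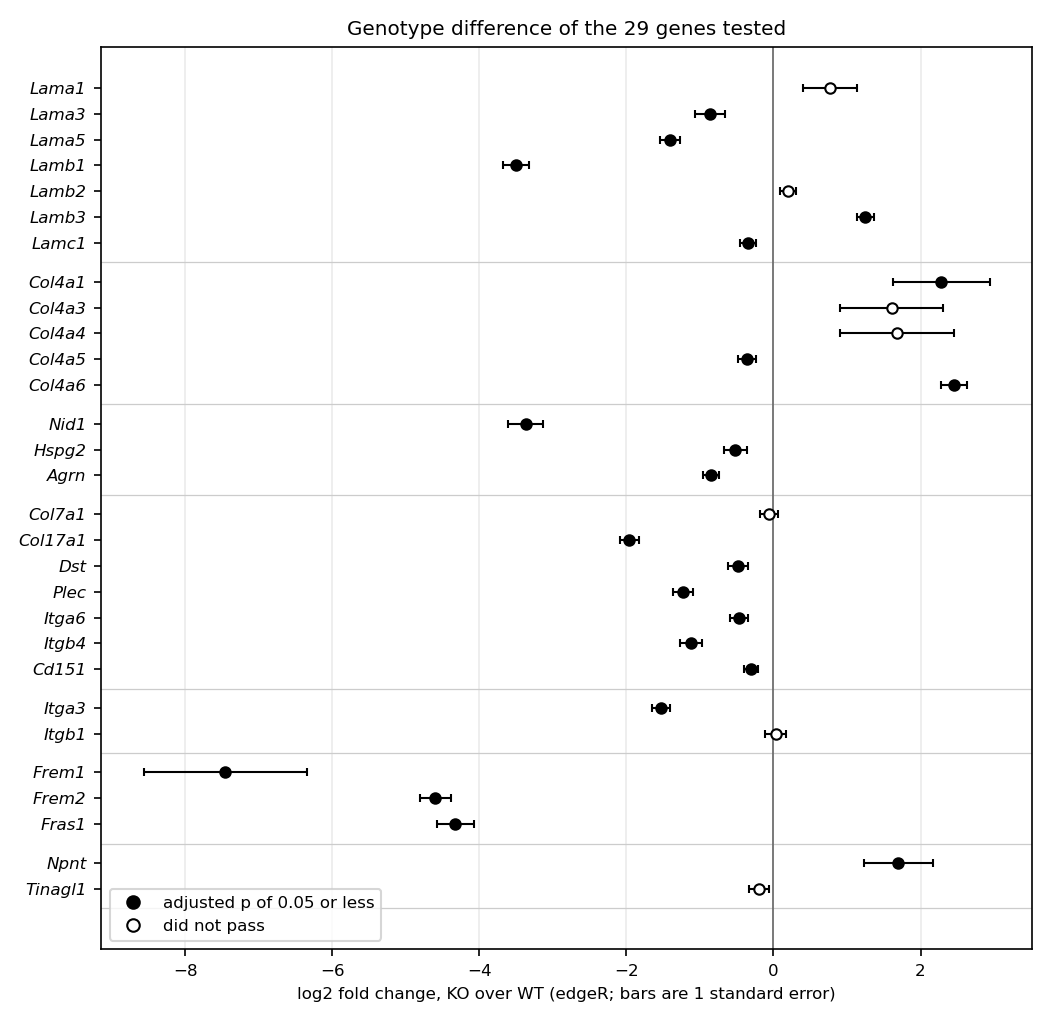
Log2 fold change of KO over WT for the 29 genes tested, with 1 standard error from the edgeR fit. Filled points passed an adjusted p of 0.05. Of these, 18 lie to the left of 0 and 4 to the right.

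The hemidesmosome genes were compared first. Of the 7 genes of hemidesmosomes and anchoring fibrils, 6 fell and 0 rose, Col7a1 being the one that did not pass. The called share was 85.7%, beside 62.0% of all genes tested. Their summed level lay between 1654 and 2115 TPM in WT and between 601 and 631 TPM in KO, and Col17a1 made up the larger part of the WT sum. Col17a1 (gene 12821, GRCm38 chromosome 19, positions 47645627 to 47692042) encodes collagen XVII, the transmembrane collagen of hemidesmosomes. It yielded 72133, 69521 and 56558 reads in WT libraries and 15355, 15909 and 15853 in KO libraries. Every KO library was far below every WT library, and the 3 KO values were close together. The WT mean of 3072 ± 343 CPM dropped to 789 ± 10.2 CPM (SD, n = 3 in each), leaving 25.7% of the WT level, which is a log2 fold of -1.96 (SE 0.125, adjusted p = 5.9e-06 by edgeR). In bulk RNA, fewer cells of a type and less RNA per cell cannot be told apart.

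Itgb4 (gene 192897, chromosome 11, positions 115974725 to 116008412) encodes the β4 chain, which occurs only in the hemidesmosome integrin. Its reads numbered 10826, 12661 and 8277 in WT libraries, against 4701, 4210 and 4604 in KO, without overlap. On the log2 scale the change was -1.12 (SE 0.151, adjusted p = 0.000306 by edgeR). Its partner Itga6 (gene 16403, chromosome 2, positions 71786886 to 71858427) came to 8612, 10576 and 8848 reads in WT and to 5664, 6520 and 6647 reads in KO. That fall came to -0.47 on the log2 scale (SE 0.117, adjusted p = 0.00822 by edgeR), and the difference between the partners was not tested. In an alternative fit that removed the trend of fold changes over gene length, called the length correction from here on, Itga6 did not pass (log2 fold change -0.32, adjusted p = 0.0533, edgeR).

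The linkers to keratin filaments were also lower. Plec, the gene of plectin, held 12383, 13234 and 13211 reads across WT replicates 1 to 3, against 6078, 4524 and 4710 across the KO replicates, which is -1.23 as a log2 fold (SE 0.136, edgeR adjusted p = 0.000102). Dst, the gene of dystonin, had 13869, 12767 and 9938 reads in the WT libraries against 7140, 8361 and 8708 in KO, a log2 KO/WT ratio of -0.48 (SE 0.137, adjusted p = 0.0143 by edgeR). Both genes make several isoforms, and the counts are sums over the gene, so the epithelial form BP230 was not measured apart from the other forms of dystonin. On the table's coordinates Plec overlaps Parp10 and Grina, while Cd151 overlaps Cracr2b, Col7a1 overlaps Ucn2, Itgb4 overlaps Galk1, Itgb1 overlaps Gm46066 and Nid2 overlaps Rtraf. The use of strand in counting is not given in the sources used here, so reads of such neighbours may not be separated. The call for Dst was lost with the length correction (adjusted p = 0.0779) and without WT replicate 1 (adjusted p = 0.057, edgeR).

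Cd151 encodes a tetraspanin that binds the laminin-binding integrins. It yielded 2915, 2715 and 2727 reads in WT libraries and 1854, 2123 and 2284 in KO libraries, or -0.31 on the log2 scale (SE 0.0936, adjusted p = 0.0195 by edgeR). The groups did not overlap, but without WT replicate 1 the adjusted p was 0.069 and without WT replicate 3 it was 0.056. Col7a1, the gene of the anchoring fibril collagen, came to 1796, 1634 and 1570 reads in WT and to 1462, 1712 and 1274 reads in KO. The groups overlapped in CPM, and the gene did not pass (-0.06 on the log2 scale, SE 0.119, adjusted p = 0.69 by edgeR). The sign was not stable, since the log2 value became 0.11 with the length correction and 0.04 without KO replicate 3.

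Hemidesmosomes belong to the basal layer, so markers of basal cells were set beside these genes. Trp63, a transcription factor of basal cells, held 6073, 6152 and 4889 reads across WT replicates 1 to 3, against 5517, 5292 and 5421 across the KO replicates, and did not pass (adjusted p = 0.797, edgeR). Krt15 did not pass either (adjusted p = 0.483, edgeR), while Krt5 fell by 1.35 on the log2 scale (adjusted p = 3.71e-05) and Krt14 rose by 4.15 (adjusted p = 0.000427, edgeR). The summed TPM of the basal cell markers lay between 28755 and 33548 in WT and between 20911 and 23250 in KO. Relative to Trp63, the TPM ratio of Col17a1 was 8.58, 8.86 and 9.18 in WT and 2.23, 2.45 and 2.33 in KO. For Itgb4 the same ratio was 1.18, 1.48 and 1.23 in WT and 0.625, 0.595 and 0.619 in KO. For Itga6 it was 0.946, 1.24 and 1.33 in WT and 0.759, 0.929 and 0.900 in KO, so that the groups lay side by side without overlap. These ratios depend on the marker chosen, since Krt5 fell by more on the log2 scale than Itgb4 (-1.12) or Itga6 (-0.47). The part of a change in basal cell number in these falls was not tested.

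Laminin chains changed in both directions, with 4 lower, 1 higher, 2 not passing and 3 with too few counts. The called share was 71.4% of those tested, not far from the 62.0% of all genes tested. The β chains showed the widest contrast. Lamb1 (gene 16777, chromosome 12, positions 31265146 to 31331147), the β1 chain of laminins found in most basement membranes, had 4336, 3106 and 3647 reads in the WT libraries against 253, 370 and 286 in KO. All KO libraries were far below WT, with 8.85% of the WT level left, which is -3.50 as a log2 fold (SE 0.175, edgeR adjusted p = 1.98e-06). Lamb3 (gene 16780, chromosome 1, positions 193294353 to 193343878), the β3 chain of laminin-332, yielded 1254, 1430 and 1100 reads in WT libraries and 2544, 2903 and 2890 in KO libraries. It was thus 2.38-fold higher in KO, a log2 KO/WT ratio of 1.25 (SE 0.111, adjusted p = 3.43e-05 by edgeR), and without overlap. Lamb2, the β2 chain, came to 1082, 1130 and 932 reads in WT and to 1222, 991 and 1138 reads in KO and did not pass (log2 fold change 0.20, SE 0.112, adjusted p = 0.148, edgeR), although it did with the length correction (0.34, adjusted p = 0.0232).

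In TPM, Lamb1 supplied 60.2%, 49.4% and 59.4% of the β chain level in the WT libraries and 4.99%, 6.75% and 5.20% in the KO libraries. The share of Lamb3 was 24.6%, 32.4% and 25.3% in WT and 70.7%, 74.9% and 73.9% in KO. The leading β chain was therefore Lamb1 in every WT library and Lamb3 in every KO library.

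The 2 α chains with substantial levels both fell. Lama3, the α3 chain of laminin-332, held 8055, 7683 and 5710 reads across WT replicates 1 to 3, against 2693, 4755 and 3528 across the KO replicates, or -0.86 on the log2 scale (SE 0.207, adjusted p = 0.00679 by edgeR). Lama5, the α5 chain of laminin-511 and laminin-521, had 4508, 3385 and 3909 reads in the WT libraries against 1525, 1423 and 1168 in KO, which is -1.41 as a log2 fold (SE 0.138, edgeR adjusted p = 5.63e-05). Neither gene overlapped between the groups. Lama3 held 75.8% ± 3.75 of the α chain TPM in WT libraries, against 82.4% ± 5.20 in KO libraries (SD, n = 3 in each), and these shares overlapped. Lama1 yielded 16, 23 and 27 reads in WT libraries and 27, 52 and 26 in KO libraries and did not pass (adjusted p = 0.0992, edgeR). Lama2 stayed at 5 counts or fewer in every library, and Lama4 had 0 in each WT library and 1, 5 and 2 in KO, so that neither was tested. Without a filter on low counts Lama4 was called higher, which rested on these 8 reads.

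Of the γ chains, Lamc1, the γ1 chain shared by most laminins, came to 858, 1004 and 835 reads in WT and to 695, 650 and 615 reads in KO. The groups did not overlap and the change was -0.35 on the log2 scale (SE 0.107, adjusted p = 0.0196 by edgeR), but the call was lost without WT replicate 2 (adjusted p = 0.0862), without KO replicate 3 (adjusted p = 0.073) and with the length correction (adjusted p = 0.157). Lamc3 had at most 13 counts in any library. Lama3 and Lamb3, which belong to the same trimer, thus moved in opposite directions.

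**Figure D3:**
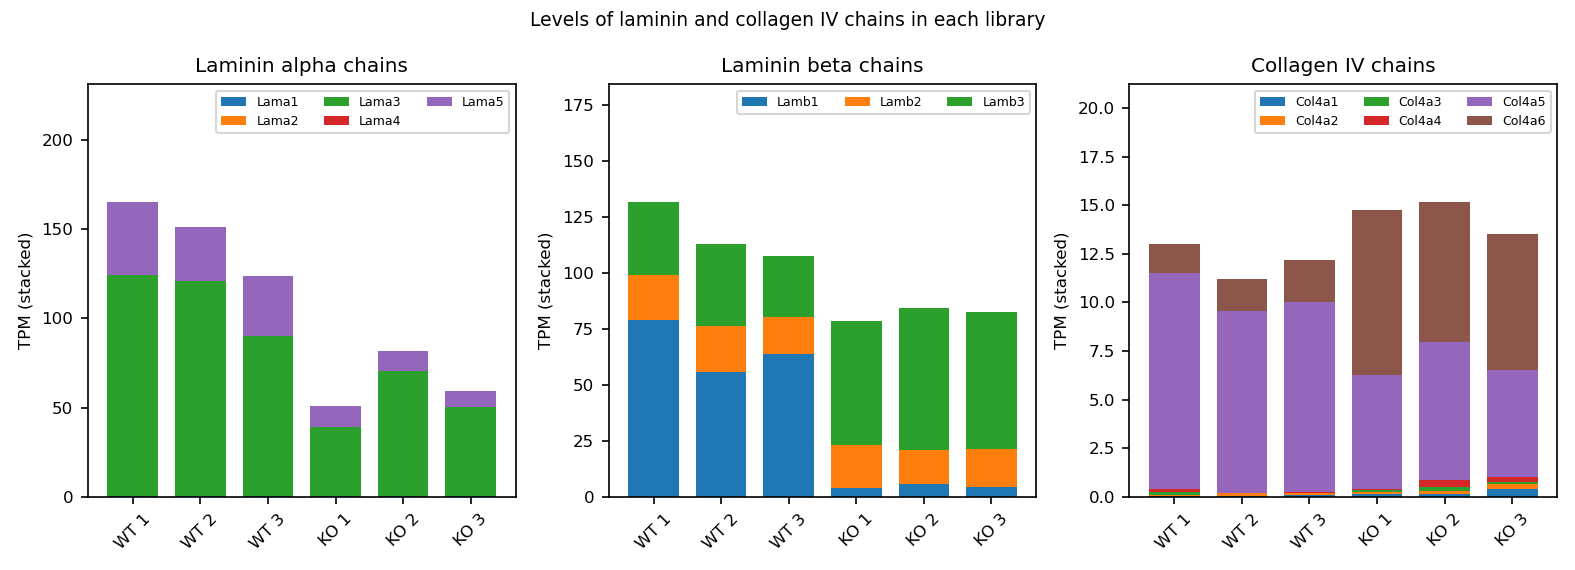
Stacked levels in TPM of the laminin α and β chains and of the collagen IV chains, with 1 bar for each of the 3 WT and 3 KO libraries. The β panel passes from mainly Lamb1 in WT to mainly Lamb3 in KO, and the collagen IV panel from mainly Col4a5 in WT to more Col4a6 than Col4a5 in each KO library.

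Collagen IV genes lie in head-to-head pairs, and the pair on the X chromosome carried most of the collagen IV RNA in every library. Col4a5 (gene 12830, chromosome X, positions 141475370 to 141689236) and Col4a6 (gene 94216, positions 141165403 to 141474076) encode the α5 and α6 chains, which form the α5α5α6 network of epithelial basement membranes, and 1293 bases lie between them. Their start regions are shown because these neighbours moved in opposite directions. Each line is the window from 250 bases before the start site to 50 bases after it, from RefSeq (GRCm38.p6), in the direction of the gene, with the GC box letters GGGCGG or their reverse complement in capitals.
Col4a5, chrX:141475169-141475468, plus strand: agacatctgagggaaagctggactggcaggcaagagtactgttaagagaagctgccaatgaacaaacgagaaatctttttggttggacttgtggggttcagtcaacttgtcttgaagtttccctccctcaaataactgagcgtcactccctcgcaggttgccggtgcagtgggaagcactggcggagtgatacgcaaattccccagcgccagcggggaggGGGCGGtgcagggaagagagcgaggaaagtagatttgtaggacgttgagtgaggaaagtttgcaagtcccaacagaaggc
Col4a6, chrX:141474027-141474326, minus strand: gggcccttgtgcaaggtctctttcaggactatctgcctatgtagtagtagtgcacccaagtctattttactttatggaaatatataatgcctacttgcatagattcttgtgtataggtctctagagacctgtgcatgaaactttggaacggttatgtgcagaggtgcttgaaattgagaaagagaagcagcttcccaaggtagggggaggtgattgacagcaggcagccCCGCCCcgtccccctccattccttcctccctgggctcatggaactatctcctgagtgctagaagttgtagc
The GC box began 30 bases before the start site in Col4a5, and in Col4a6 it lay on the opposite strand, 21 bases before the start site. This motif is common, and 35.7% of 32851 such windows held it on either strand.

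Col4a5 had 687, 588 and 634 reads in the WT libraries against 430, 525 and 423 in KO, a log2 KO/WT ratio of -0.36 (SE 0.119, adjusted p = 0.0271 by edgeR). Col4a6 yielded 95, 103 and 141 reads in WT libraries and 644, 542 and 544 in KO libraries, or 2.46 on the log2 scale (SE 0.176, adjusted p = 1.12e-05 by edgeR). Col4a5 held 83.1% ± 2.57 of the collagen IV TPM in WT libraries and 42.5% ± 3.90 in KO libraries, and Col4a6 held 14.5% ± 3.11 and 52.3% ± 5.18 (SD, n = 3 in each). Neither gene overlapped between the groups, and the TPM ratio of Col4a6 to Col4a5 was 0.134, 0.173 and 0.220 in WT and 1.45, 1.01 and 1.27 in KO. The fall of Col4a5 was the less certain of these results. Its adjusted p was 0.105 without WT replicate 1, 0.078 without WT replicate 3, 0.0707 without KO replicate 1, 0.0946 without KO replicate 3 and 0.152 with the length correction. The rise of Col4a6 was called in all 17 alternative fits (other scalings, filters and tools, or 1 library left out).

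The other collagen IV chains were near the limit of detection. Col4a1, the α1 chain of the network common to nearly all basement membranes, came to 1, 4 and 6 reads in WT and to 11, 10 and 30 reads in KO, which is 2.28 as a log2 fold (SE 0.661, edgeR adjusted p = 0.016). Its neighbour Col4a2 held 4, 7 and 7 reads across WT replicates 1 to 3, against 6, 12 and 20 across the KO replicates and was not tested. The call for Col4a1 was lost without WT replicate 1 (adjusted p = 0.0529), without KO replicate 3 (log2 value 1.60, adjusted p = 0.0659) and by limma on log2(FPKM + 1) (adjusted p = 0.139). Col4a3 had 12, 2 and 1 reads in the WT libraries against 10, 20 and 13 in KO, and Col4a4 had 17.2, 1.77 and 3.85 in WT and 6.56, 39.3 and 23.2 in KO. Both overlapped and neither passed (adjusted p = 0.0752 and 0.0886, edgeR), although without WT replicate 1, the WT library with the most reads of both genes, both were called higher, with log2 fold changes of 3.25 and 2.99. Without KO replicate 1 Col4a4 was also called (log2 fold change 2.11).

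Markers of other cells were set beside Col4a1, and most of those called were higher in KO. The keratocyte and fibroblast markers summed to between 5.66 and 6.69 TPM in WT and between 15.3 and 28.1 TPM in KO. Of the 7 tested, 5 were higher, Pdgfra was lower and Col5a2 did not pass (log2 fold change 0.10, adjusted p = 0.864, edgeR). The endothelial markers summed to between 0.29 and 0.60 TPM in WT and to between 1.99 and 3.68 TPM in KO. Only 2 of 5, Pecam1 and Flt1, had enough counts for a test, and both were called higher. For pericyte and smooth muscle markers the sums were between 1.75 and 2.79 TPM in WT and between 7.85 and 14.6 TPM in KO. Only 2 of 6 were tested, and both were higher. Those that rose among the fibroblast markers were Dcn, Thy1, Vim, Col1a1 and Col1a2. Dcn, the gene of the stromal proteoglycan decorin, went from 1, 0 and 1 reads in WT to 153, 24 and 93 in KO, and Thy1, a surface protein of fibroblasts and other cells, from 2, 5 and 0 to 191, 84 and 159. The pericyte and smooth muscle markers that rose were Acta2 and Cspg4, with log2 values of 2.84 and 3.62. Other markers of these lists had few reads in both groups, Lum of keratocytes having 0 reads in every WT library and 2, 4 and 1 in KO, Kdr of endothelium 0 in every WT library and 0, 1 and 2 in KO, and Rgs5 of pericytes 1 read in all 6 libraries together. The part of such cells in the rise of Col4a1 was not tested.

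Nidogen and the proteoglycans, which join the laminin and collagen IV networks, were lower in KO, with 3 of 4 genes called. Nid1 (gene 18073, chromosome 13, positions 13437602 to 13512275), the gene of nidogen-1, yielded 679, 631 and 975 reads in WT libraries and 50.9, 80.9 and 73.0 in KO libraries. The KO libraries held 9.64% of the WT level, a log2 KO/WT ratio of -3.37 (SE 0.235, adjusted p = 9.73e-06 by edgeR), and the groups were far apart. Nid2, the gene of nidogen-2, had 0 or 1 read in every library, so that no difference could be measured at this depth. Agrn, the gene of agrin, came to 4480, 3888 and 3810 reads in WT and to 2382, 1956 and 1920 reads in KO, or -0.85 on the log2 scale (SE 0.115, adjusted p = 0.000317 by edgeR). Hspg2, the gene of perlecan, held 576, 454 and 393 reads across WT replicates 1 to 3, against 345, 287 and 284 across the KO replicates, which is -0.52 as a log2 fold (SE 0.155, edgeR adjusted p = 0.0177). Although its groups did not overlap, the adjusted p of Hspg2 was 0.0703 without WT replicate 1, 0.056 without KO replicate 2, 0.0594 without KO replicate 3 and 0.0557 with the length correction.

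The Fraser complex genes had the most negative log2 fold changes of the 29 genes tested. Fras1, Frem1 and Frem2 encode very large matrix proteins that assemble under embryonic epithelia and anchor them to the tissue below, and Grip1 encodes an adaptor that carries Fras1 and Frem2 to the basal cell surface. The start region of Frem2 (gene 242022, chromosome 3, positions 53513938 to 53657355) is shown, since it changed most among the genes here whose window held the κB consensus, the binding motif of NF-κB. The window is written as for the collagen IV genes, with the motif in capitals.
Frem2, chr3:53657306-53657605, minus strand: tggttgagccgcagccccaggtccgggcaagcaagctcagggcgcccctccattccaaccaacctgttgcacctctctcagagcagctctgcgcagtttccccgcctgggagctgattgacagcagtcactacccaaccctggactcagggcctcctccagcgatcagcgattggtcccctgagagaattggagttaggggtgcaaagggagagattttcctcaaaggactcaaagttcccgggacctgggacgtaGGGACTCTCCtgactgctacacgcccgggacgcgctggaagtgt
The motif began 6 bases after the start site, on the strand of the gene. Frem2 had 3280, 1922 and 2197 reads in the WT libraries against 87, 98 and 96 in KO, so that 4.10% of its WT level was left, with a log2 KO/WT ratio of -4.60 (SE 0.215, adjusted p = 1.48e-06 by edgeR).

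Fras1 (gene 231470, chromosome 5, positions 96370393 to 96784733) yielded 2095, 1092 and 1743 reads in WT libraries and 84, 72 and 71 in KO libraries. The change was -4.33 on the log2 scale (SE 0.253, adjusted p = 3.93e-06 by edgeR), with 4.97% of the WT level left. WT libraries varied almost 2-fold for both genes, and the KO libraries were close to each other. Frem1 (gene 329872, chromosome 4, positions 82897920 to 83052406) came to 92, 52 and 300 reads in WT and to 0, 0 and 2 reads in KO. The WT spread was wide, with WT replicate 3 above the others, and the summed and depth-scaled reads gave a ratio of WT to KO of 206, with a 95% exact interval from 56.6 to 1705 that covers counting error only. The fitted log2 value was -7.46 (adjusted p = 0.000538 by edgeR). It was -6.38 without WT replicate 3, and -10.18 without KO replicate 3, where the remaining KO libraries had 0 reads and the value depends on the fit's prior count. Frem1, Frem2 and Fras1 were called lower in all 17 alternative fits. Grip1, in contrast, held 98.9, 68.9 and 99.0 reads across WT replicates 1 to 3, against 596, 702 and 453 across the KO replicates, or 2.82 on the log2 scale (SE 0.211, adjusted p = 1.37e-05 by edgeR).

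**Figure D4:**
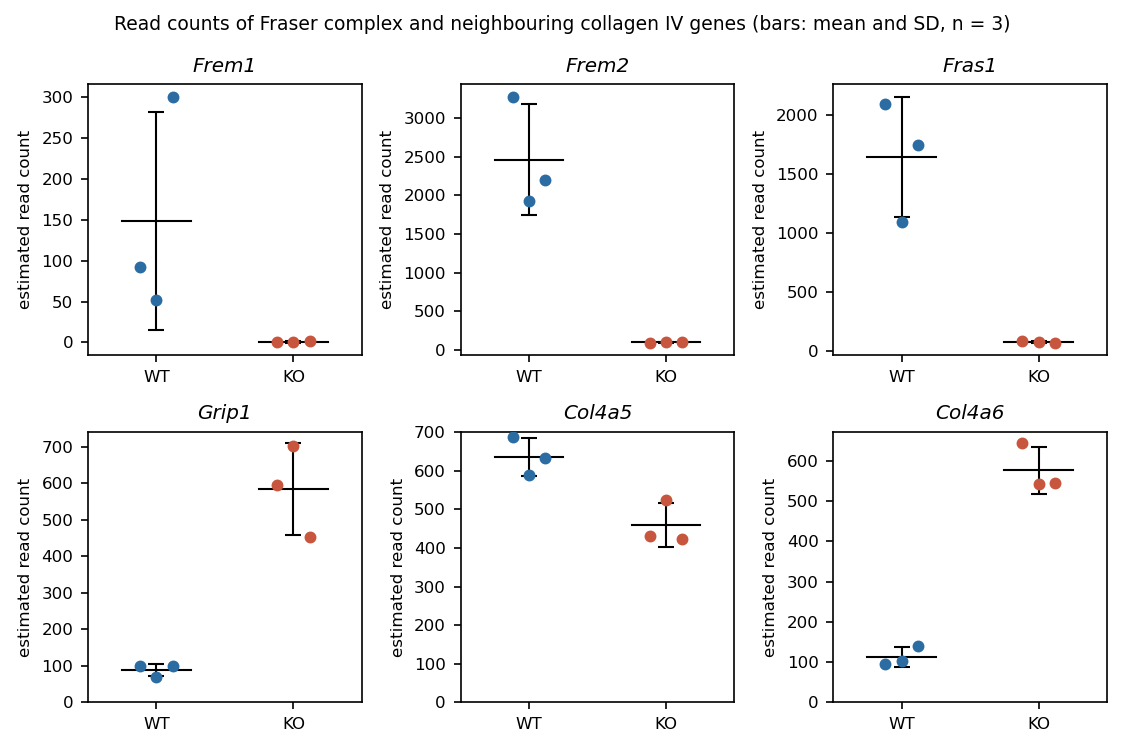
Estimated read counts of the 3 Fraser complex genes, of Grip1 and of the neighbours Col4a5 and Col4a6, with 1 point for each library and bars for the mean and SD (n = 3 per group). Frem1, Frem2 and Fras1 lie near 0 in KO, Grip1 and Col4a6 are higher in KO, and Col4a5 is lower by a smaller amount.

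Integrins that bind laminin outside hemidesmosomes were compared next. The integrin α3β1 is a receptor for laminin-332 and laminin-511 on the basal and lateral cell surface. Itga3 (gene 16400, chromosome 11, positions 95044475 to 95087397), its α chain, yielded 4881, 5225 and 4129 reads in WT libraries and 1623, 1333 and 1615 in KO libraries. The groups were well apart, with 34.7% of the WT level left and a log2 KO/WT ratio of -1.53 (SE 0.121, adjusted p = 1.82e-05 by edgeR). Itgb1, the β1 chain shared by many integrins, came to 2891, 3271 and 2854 reads in WT and to 2213, 3228 and 3097 reads in KO. Its groups overlapped, and it did not pass (0.03 on the log2 scale, SE 0.142, adjusted p = 0.871 by edgeR). Its sign changed with the scaling, the log2 value being -0.06 with total counts only. The TPM ratio of Itga6 to Itga3 was 1.38, 1.58 and 1.67 in WT and 2.74, 3.79 and 3.21 in KO.

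The start regions of Itga3, which fell, and of Lamb3, which rose, are shown to set a falling and a rising gene with the κB consensus side by side, again with the motif in capitals.
Itga3, chr11:95076665-95076964, minus strand: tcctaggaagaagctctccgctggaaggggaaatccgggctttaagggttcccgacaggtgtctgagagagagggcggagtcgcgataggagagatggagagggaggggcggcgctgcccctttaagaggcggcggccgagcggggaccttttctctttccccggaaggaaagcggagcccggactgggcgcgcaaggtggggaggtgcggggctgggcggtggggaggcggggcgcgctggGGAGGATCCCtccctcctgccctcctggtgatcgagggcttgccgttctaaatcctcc
Lamb3, chr1:193301744-193302043, plus strand: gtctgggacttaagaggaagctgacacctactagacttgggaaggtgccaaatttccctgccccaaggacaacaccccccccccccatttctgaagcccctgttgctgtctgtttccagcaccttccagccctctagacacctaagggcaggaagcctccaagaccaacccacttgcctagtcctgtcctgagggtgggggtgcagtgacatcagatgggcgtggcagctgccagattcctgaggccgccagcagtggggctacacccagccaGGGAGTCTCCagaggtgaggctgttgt
In Itga3 the motif lay on the opposite strand across the start site, beginning 8 bases before it, and a second window of this gene held none. In Lamb3 it began 23 bases after the start site, and a second window of this gene also held the motif. Both printed windows lie inside the gene positions given above, so each shows only 1 of the gene's start sites. Windows were found for 24 of the 35 genes, and 6 genes held the κB consensus on either strand, namely Cd151, Col4a2, Frem2, Itga3, Lamb3 and Npnt. Of these, Cd151, Frem2 and Itga3 were lower in KO, Lamb3 and Npnt were higher, and Col4a2 was not tested. Counted by window, 7 of the 33 windows of these genes held the motif, and among all 32851 windows of this length 8.46% did. The AP-1 letters TGANTCA were in 4 of the 33 windows (of Egflam, Itga3 and Tinagl1) and in 7.81% of all windows. A match of letters says nothing of whether a factor binds there.

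Of the 3 further ligands 1 rose. Npnt, the gene of the integrin ligand nephronectin, had 33, 21 and 17 reads in the WT libraries against 114, 33 and 67 in KO, which is 1.70 as a log2 fold (SE 0.464, edgeR adjusted p = 0.012), where KO replicate 2 and WT replicate 1 had equal reads and the groups were apart in CPM but not in TPM. Egflam, the gene of pikachurin, held 7, 5 and 4 reads across WT replicates 1 to 3, against 2, 0 and 1 across the KO replicates and was not tested. Tinagl1, a matrix protein related to tubulointerstitial nephritis antigen, had 493, 579 and 658 reads in the WT libraries against 467, 434 and 493 in KO. The groups overlapped in CPM and the gene did not pass (log2 fold change -0.20, SE 0.133, adjusted p = 0.21, edgeR), although it did with the length correction (-0.34, adjusted p = 0.0453).

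Further genes of matrix and adhesion were taken from 5 lists. Over all genes tested, 31.8% were called higher and 30.2% lower, 62.0% in all. Of 22 other basement membrane components, 17 were tested, and KO was higher for 11 and lower for 4, a called share of 88.2%. Tnc, the gene of tenascin-C, an injury-related matrix protein, yielded 5, 7 and 13 reads in WT libraries and 896, 931 and 1235 in KO libraries (log2 fold change 7.02, SE 0.270, adjusted p = 5.75e-07, edgeR). Col18a1, the gene of the proteoglycan collagen XVIII, came to 22, 34 and 24 reads in WT and to 1285, 894 and 1031 reads in KO, which was 43.3-fold higher. Vwa2 and Smoc2, which encode further matrix proteins, were 19.2-fold and 16.3-fold higher. The median log2 fold change of the list was 0.94, beside -0.47 for the 29 genes above and 0.01 for all genes tested. Its summed level was nonetheless lower in KO, between 1853 and 2448 TPM in WT and between 1302 and 1315 TPM in KO.

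Among 16 genes listed for collagen folding and crosslinking, 13 were tested, with 8 higher and 1 lower. The called share of 69.2% was near the 62.0% of all genes tested. The 8 include Grip1, which this list also held although it encodes the adaptor described above and no folding or crosslinking protein. Plod2 (7.06-fold), P4ha2 (4.66-fold) and Serpinh1 (2.22-fold) also rose, which encode a lysyl hydroxylase, a prolyl hydroxylase subunit and a collagen chaperone. Of the other matrix receptors 16 were tested, with 8 lower and 2 higher, a called share near that of all genes tested. Sdc1 and Sdc4, cell surface proteoglycans of epithelia, fell by 0.90 and 0.99 on the log2 scale, whereas Sdc3 held 2, 3 and 6 reads across WT replicates 1 to 3, against 123, 91 and 92 across the KO replicates, and Itga5, a chain of the fibronectin receptor, was 9.05-fold higher.

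Of 10 focal adhesion linkers tested, 9 fell and 0 rose, with a median log2 fold change of -0.90. The called share was 90.0%, beside 62.0% of all genes tested. Parva, the gene of α-parvin, fell by 2.12 (SE 0.0879, adjusted p = 8.85e-07, edgeR), Tln2 by 1.91, Fermt1, the gene of kindlin-1, by 1.25 and Pxn, the gene of paxillin, by 1.11 on the log2 scale. Among basement membrane proteases and their inhibitors, 16 were tested, with 9 higher and 3 lower. Mmp2, a gelatinase, had 3, 1 and 2 reads in the WT libraries against 391, 294 and 259 in KO (adjusted p = 1.32e-06, edgeR). Mmp13, a collagenase, yielded 12, 21 and 1 reads in WT libraries and 31, 195 and 91 in KO libraries (adjusted p = 0.00724, edgeR), with a wide spread in both groups. Bmp1, which processes laminin and collagen VII precursors, was 2.67-fold higher, and the inhibitor gene Timp3 fell by 1.56 on the log2 scale.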

How the data were processed

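Bulk RNA-seq libraries, 3 WT and 3 KO, were grouped by titles and genotype labels. Ribosomal RNA depletion is given in the methods, although the labels name a TruSeq kit. The authors filtered the reads, aligned them with Bowtie2 (2.2.5) and estimated gene levels with RSEM (1.2.12), per the submitters' notes. The deposited table holds estimated counts, FPKM and TPM per gene and library. RSEM divides reads that fit several genes, so 7 of the 35 genes had counts that were not whole numbers (tolerance 0.001). The labels name mm9, but the table's coordinates are GRCm38, and its strand column was not used. The table also holds the authors' own means, fold changes and p-values, which were not used.

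Estimated counts were rounded, then analysed in R 4.3.3 by edgeR 4.0.16 (TMM, filterByExpr, glmQLFit, glmQLFTest, genotype as the only term, Benjamini-Hochberg adjustment over 13305 genes). A call is an adjusted p of 0.05 or less. Standard errors were derived from the log2 fold change and the F statistic. The fit was tested on simulated data. Alternatives were DESeq2 1.42.0, other scalings and filters, limma 3.58.1 on log2(FPKM + 1) and log2(FPKM + 0.1), a loess correction for gene length, the replicate number as a block, and each library left out in turn. The 35 genes and all further lists were chosen with earlier results of these data known. All 35 genes are named, as are up to 4 genes with the largest changes in each further list among those called whose higher group averaged 100 counts or more. A gene chosen by name besides that rule is not reported here. Plg, Krt3, Kera, Cdh5, Emcn and Cldn5 of the lists had no row under these symbols in the deposited table, so they could not be analysed. Promoter windows are from RefSeq tables of GRCm38.p6 and were matched by symbol and gene identifier. Libraries of a group are separate biological samples per the study's methods. Python 3.11.15, pandas 2.3.3, scipy 1.17.1 and matplotlib 3.10.9 were used.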

Additional observations from a re-analysis of the deposited data

How the results depend on the processing

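Of the 22 genes called, 15 were called in the same direction in every alternative in which they were tested. The number called was 22 with the replicate number as a block, as without it, and 12 stood at the study threshold in both fits. Deviations of same-numbered libraries correlated at 0.034, -0.010 and 0.061, within the range of the other pairs, from -0.159 to 0.123. No pairing by number was thus seen, but such correlations over all genes cannot exclude one. The block changed no call. Leaving out 1 library at a time left between 18 and 23 genes called, between 14 and 17 of them lower and between 3 and 6 higher, and between 10 and 12 at the study threshold, of which between 8 and 10 were lower and 2 higher. With a mean count of at least 50, 2 genes were called higher instead of 4, because Col4a1 and Npnt were no longer tested. The genes are long, with a median effective length of 6589 bases over the 32 with a value against 2853 bases over all genes tested. The length correction left 14 of them lower and 5 higher. In that fit 8100 of all 13302 genes tested were called, 4373 lower and 3727 higher. The genes Itgb1 and Col7a1, which did not pass, changed sign. For Itgb1 the log2 fold change was -0.06 with total counts only, -0.08 by limma on log2(FPKM + 1) and -0.09 on log2(FPKM + 0.1), and between -0.07 and 0.18 with 1 library left out. For Col7a1 it was 0.11 with the length correction and between -0.17 and 0.04 with 1 library left out. Depth limits the chains Col4a1 to Col4a4 and the genes not tested.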

Other observations

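Fibronectin and Ntn4 were not named by the rule for further genes and were chosen after their values were seen. Fn1, the gene of fibronectin, a matrix protein of provisional and stromal matrix, had 12390, 7191 and 8130 reads in the WT libraries against 702, 741 and 830 in KO, or -3.50 on the log2 scale (SE 0.205, adjusted p = 4.03e-06 by edgeR). It fell while Itga5, a chain of its receptor, and Tnc rose. Ntn4, the gene of netrin-4, a laminin-related protein of basement membranes, yielded 1039, 792 and 843 reads in WT libraries and 221, 183 and 245 in KO libraries, which is -1.93 as a log2 fold (SE 0.147, edgeR adjusted p = 1.5e-05).

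The leukocyte markers summed to between 178 and 205 TPM in WT and between 183 and 248 TPM in KO, with 3 of 5 tested higher and 1 lower. In WT most of the sum was Itgam, which was lower in KO, and Cd68, which did not pass. Ptprc, Cd74 and Lyz2 were 13.1-fold, 8.05-fold and 150-fold higher, and Lyz2 had at most 2 reads in any WT library. Schwann cell markers summed to between 90.1 and 110 TPM in WT and between 44.9 and 52.8 TPM in KO, nearly all of it Mbp. The corneal endothelium markers summed to between 9.43 and 11.0 TPM in WT and between 9.19 and 10.2 TPM in KO. Of the 2 tested, Col8a1 was called higher (3.38-fold, adjusted p = 0.00695, edgeR). Slc4a11 did not pass, with a mean of 8.66 TPM in WT and 5.36 TPM in KO. All 5 corneal epithelium markers that were tested fell.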
